A study of Mus musculus with 57 samples.

Results

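The change in kidney gene expression with nephritis was compared between 2 lupus-prone mouse strains, NZB/W and NZM2410. For each gene the NZM2410 change (nephritic minus prenephritic) was subtracted from the NZB/W change (36-week nephritic minus 16-week prenephritic), each change being taken inside its own strain. The comparison used 28 of the 57 whole-kidney arrays of the study and 16475 genes. NZB/W mice are the hybrids of New Zealand Black and New Zealand White mice, and NZM2410 is an inbred strain derived from the same parents; both develop autoantibodies and glomerulonephritis without treatment. The 8 NZB/W prenephritic kidneys were from mice of 16 weeks without proteinuria, and the 10 nephritic kidneys were from proteinuric mice of 36 weeks. The 5 prenephritic NZM2410 kidneys are labelled young and the 5 nephritic ones sick, with no age given. Another 17 NZB/W kidneys, 11 taken at 23 weeks without proteinuria and 6 at its onset at 23 weeks, entered the estimate of the spread. One label field calls the 36-week kidneys prenephritic, while their description calls them nephritic and proteinuric, and the description was followed. No allele, agent or treatment is named for any group. Age and disease stage cannot be told apart between the 16-week and 36-week NZB/W kidneys, nor between the young and sick NZM2410 kidneys. The labels do not say whether the nephritic kidneys of the 2 strains were at a like stage. Strain, stage and set of arrays thus cannot be told apart in the difference. The labels do not say whether the kidneys of a group came from separate mice, and the p-values below reflect only how far these kidneys varied, which may be technical.

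In lupus nephritis, antibodies and immune complexes settle in the glomeruli, complement and Fc receptors are engaged, and leukocytes enter the kidney. Injured tubule cells then switch on a known set of genes, among them Havcr1 (kidney injury molecule 1) and Lcn2 (lipocalin 2), and lose transporters of the proximal tubule. B cells and plasma cells can also gather within the kidney and make antibody there. In these whole-kidney samples, fewer cells of a type and less RNA per cell cannot be told apart.

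Some arrays stood apart and bear on what follows. When each array was placed on the line from its strain's prenephritic mean (0) to its nephritic mean (1), NZM2410 nephritic replicate 4 lay at 0.516, while the other 4 lay between 1.05 and 1.18. Leaving out that kidney, the least changed of its group, makes the mean NZM2410 change larger along this line. Gene and list results without it were picked with this known. List counts without other single kidneys are not given. The 36-week NZB/W kidneys ranged from 0.508 (replicate 9) to 1.70 (replicate 5). Among the 16-week kidneys, replicates 1 to 3 lay between 0.130 and 0.256 and the other 5 between -0.213 and -0.0427. The marker lists of neighbouring tissue also varied. The mean log2 level of 8 fat-cell genes ranged from 5.79 to 8.71 in nephritic and from 6.19 to 9.01 in prenephritic NZM2410 kidneys, and from 6.87 to 9.47 and from 7.34 to 9.43 in the corresponding NZB/W kidneys. That of 9 adrenal cortex genes reached 9.08 in 1 prenephritic and 8.15 in 1 nephritic NZM2410 kidney, against medians of 5.80 and 5.77, and ranged from 6.07 to 7.47 at 16 weeks and from 5.32 to 7.23 at 36 weeks. Of the 17 fat and adrenal genes, 0 were called by limma for a difference between strains and 0 had an unadjusted p under 0.05. The difference, NZB/W minus NZM2410, was above 0 in all 8 fat-cell genes (median 0.648) and in 1 of the 9 adrenal genes (median -0.275). The part of such tissue in other genes was not tested. The Gapdh 3' minus 5' signal, a measure of RNA quality, was 0.0152 ± 0.0961 (SD, n = 8) at 16 weeks and 0.204 ± 0.192 (SD, n = 10) at 36 weeks (p = 0.0220 by a two-sided exact permutation test, and 0.161 after adjustment over 12 tests), and -0.159 ± 0.0357 and -0.104 ± 0.0873 (SD, n = 5 each) in NZM2410 (exact p = 0.230, adjusted p = 0.395).

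Many genes changed the same way in both strains. With limma inside each strain and a Benjamini-Hochberg adjusted p under 0.05, 1813 genes rose (11% of the genes tested) and 2525 fell (15.3%) in NZB/W, and 1884 rose (11.4%) and 2277 fell (13.8%) in NZM2410. In all, 2471 genes were called in both strains with the same direction and 14 with opposite directions. Across genes, which are not independent replicates, the changes correlated with a Pearson r of 0.752 and a Spearman rho of 0.633. The changes were spread more widely in NZM2410 (SD over genes 0.397) than in NZB/W (0.321). The levels were also wider in NZM2410, with a median array SD of 2.17 against 1.95. The median SE of a change was 0.0918 in NZM2410 and 0.0737 in NZB/W. The part of these in the wider spread was not tested.

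Against this shared background, 283 genes differed in their change (adjusted p under 0.05): the NZB/W change lay above the NZM2410 change for 127 (0.771% of genes tested) and below it for 156 (0.947%). Of these, 30 and 37 were at least 2-fold apart. Most of the first set were called as fallen in NZM2410 only (63 genes) or as risen in NZB/W only (35 genes). Most of the second were called as risen in NZM2410 only (100 genes) or in both strains, further in NZM2410 (37 genes). A gene without a call in a strain may still have changed there. The number rests on the test. The variances of the 2 strains were summed with Satterthwaite degrees of freedom, a form that made somewhat more false calls on simulated data than its nominal share. A conservative form, which takes the smaller degrees of freedom of the 2 fits and was added after the data were seen, called 18 genes, 7 above and 11 below, and all 18 were among the 283. Arrays mattered as well: without NZM2410 nephritic replicate 4 the count was 1170, which included all 283, and without NZM2410 nephritic replicate 3 it was 138. Without 16-week replicates 1 to 3 it was 735, and with the Gapdh signal as a covariate 88.

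**Figure D1:**
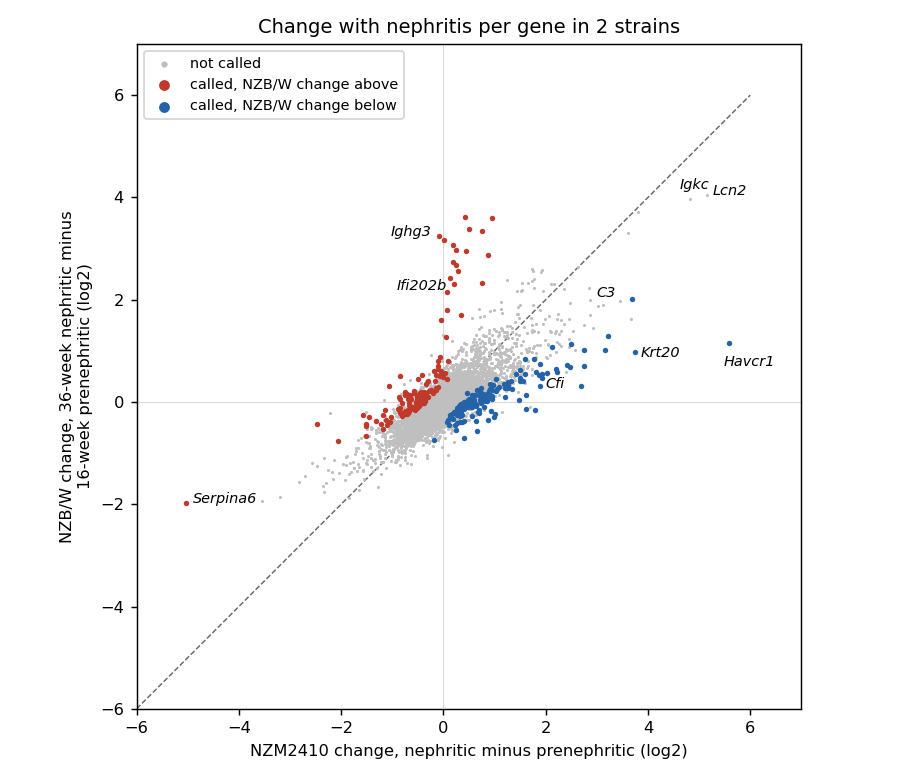
Each point is a gene, with its NZM2410 change on the x axis and its NZB/W change on the y axis (both log2), red and blue where the difference was called. Most points follow the dashed line of equal change, while antibody genes and Ifi202b stand above it near an NZM2410 change of 0 and Havcr1 lies far below it.

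Both forms of the test called 18 genes. Havcr1, Pcdh8, Cyp4b1, Cxcl2, C1ql3, Cfi, Enox1, Cftr, Gstt1, Ankrd6 and Nat8f2 had the larger rise or the only called rise in NZM2410. For Ighg3, Ighg2b, Ifi202b, Kcne1l, Rasa3, Dpys and Albfm1 the NZB/W change lay above. Of the 18 genes, 9 were named only after their values were seen. Among them, Cftr, the chloride channel mutated in cystic fibrosis, changed by 0.11 in NZB/W and rose by 1.20 in NZM2410 (log2). Rasa3, a GTPase-activating protein of Ras-family proteins, rose by 0.69 in NZB/W and changed by -0.11 in NZM2410. Dpys, dihydropyrimidinase of pyrimidine breakdown, changed by -0.13 in NZB/W and fell by 0.89 in NZM2410.

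Havcr1, a scavenger receptor that injured proximal tubule cells expose, showed the largest difference of all genes. Its log2 levels in the 16-week NZB/W kidneys ran from 8.32 to 9.06 with a median of 8.63, and in the 36-week kidneys from 8.72 to 11.51 with a median of 9.59. In NZM2410 its levels were 6.61, 6.52, 6.80, 6.85 and 6.85 in prenephritic and 12.82, 12.18, 13.06, 11.46 and 12.02 in nephritic kidneys. The groups overlapped in NZB/W and were far apart in NZM2410. Havcr1 thus rose by 1.15 ± 0.27 (SE) in NZB/W and by 5.58 ± 0.25 (SE) in NZM2410, a difference of -4.43 ± 0.37 (SE, limma adjusted p = 1.55e-10; 0.000767 in the conservative form). At 23 weeks NZB/W levels were 8.80 ± 0.39 (SD, n = 11) without proteinuria and 9.29 ± 0.62 (SD, n = 6) at its onset.

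The list of tubular injury genes moved the same way. Of 26 measured members, 25 rose in each strain, and the NZB/W change was the smaller one in all 26. The median change was 0.92 in NZB/W and 1.77 in NZM2410, against medians over all genes of -0.01 in both, and 7 members were called below and 0 above. Krt20, an epithelial keratin, lay between 4.88 and 5.46 at 16 weeks (median 5.08) and between 5.10 and 7.98 at 36 weeks (median 6.01). In NZM2410 kidneys Krt20 was 5.43, 5.01, 4.89, 5.35 and 5.48 before and 10.69, 8.55, 9.31, 7.86 and 8.46 with nephritis. Replicates 4 and 7 were the highest of the 36-week kidneys, and no nephritic NZM2410 kidney came near the prenephritic range. The difference for Krt20 was -2.77 ± 0.50 (SE, limma adjusted p = 0.00379; 0.0611 in the conservative form). Vcam1, an adhesion molecule for leukocytes, rose by 1.29 and 3.22, and Cd44, the hyaluronan receptor, by 2.01 and 3.69 in NZB/W and NZM2410. The annexins Anxa2 and Anxa3 and Spp1 (osteopontin) were the other called members, with differences of -0.93, -1.36 and -0.41. Lcn2 itself did not pass, with changes of 4.04 and 5.16 and a difference of -1.12 ± 0.68 (SE, adjusted p = 0.435). Without NZM2410 nephritic replicate 4, whose Lcn2 level was 9.89 against 12.13 to 13.09 in the other 4, the difference was -1.65 (adjusted p = 0.0444), and 18 members of the list were called below. In the conservative form 1 member, Havcr1, was called, and with the Gapdh signal as a covariate 2.

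Other epithelial genes with the larger change in NZM2410 were of several kinds. Cyp4b1, a cytochrome P450, changed by -0.16 in NZB/W and rose by 1.80 in NZM2410, where its levels were 11.01, 10.76, 10.56, 11.09 and 10.36 before and 12.28, 11.91, 12.92, 13.09 and 12.57 with nephritis. Its NZB/W groups overlapped, from 11.75 to 12.53 at 16 weeks (median 12.37) and from 11.13 to 13.01 at 36 weeks (median 12.24). Pcdh8, a protocadherin, rose by 2.69 in NZM2410 and changed by 0.31 in NZB/W, where it was not marked as expressed above baseline. Aoc1 (diamine oxidase) and Fabp1 (a fatty acid binding protein) rose in NZM2410 by 3.16 and 2.76 and had changes of 1.02 and 0.71 in NZB/W. Cyp24a1, which inactivates vitamin D, rose by 2.48 in NZM2410 and changed by 0.68 in NZB/W. Under 43 alternatives the call for the difference was lost in 23 for Fabp1 and in 28 for Cyp24a1. The limma adjusted p in the conservative form was 0.167 for each. For Fabp1, 16-week replicate 1 stood at 8.33, against 5.76 for the next kidney. Anxa13, an epithelial annexin, changed by -0.14 in NZB/W and rose by 1.62 in NZM2410, Smpdl3b, a lipid-modifying phosphodiesterase, rose by 1.03 and 2.75, and the cytochrome Cyp2j13 had changes of 0.31 and 1.90. Of 33 listed proximal tubule genes, 29 fell in NZB/W and 27 in NZM2410, with medians of -0.78 and -0.76. The sodium-phosphate transporter Slc34a1 fell by 1.05 and 1.24, and the difference of 0.19 ± 0.34 (SE) had an adjusted p of 0.842. Cyp24a1 was the 1 called member of that list.

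**Figure D2:**
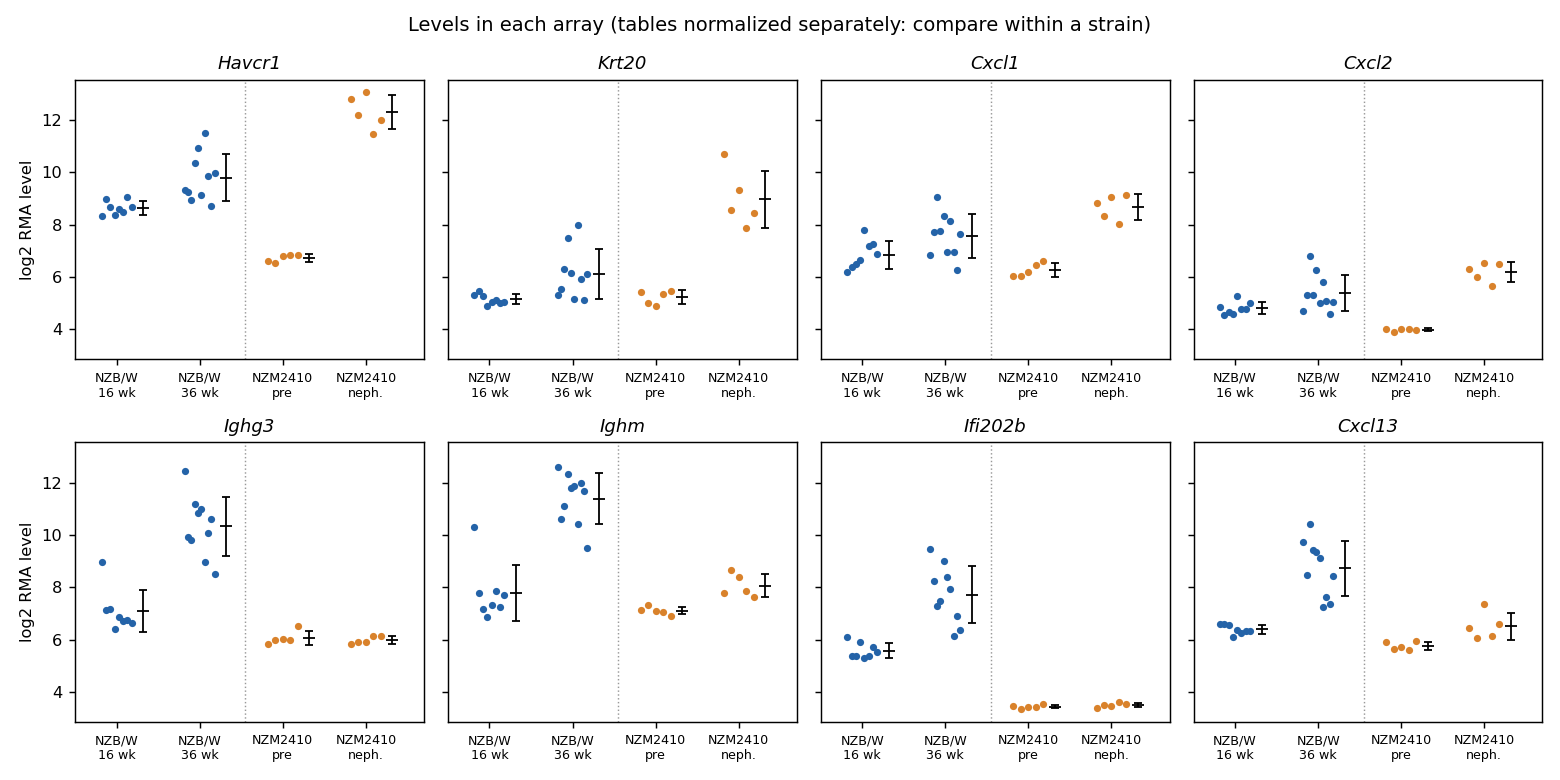
Each point is the log2 level of 1 gene in 1 array, with the group mean and SD as a bar to the right; 16-week and 36-week NZB/W kidneys are blue, prenephritic and nephritic NZM2410 kidneys orange. The tables were normalized separately, so levels compare within a strain only; Havcr1, Krt20, Cxcl1 and Cxcl2 separate fully in NZM2410, and Ighg3 and Ifi202b move in NZB/W alone.

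Chemokines, the secreted proteins that draw leukocytes, split in both directions. Cxcl1 and Cxcl2 call neutrophils through the receptor Cxcr2, Cxcl10 calls activated T cells through Cxcr3, and Cxcl13 calls B cells through Cxcr5. Of 21 measured chemokines, 17 rose in NZB/W and 15 in NZM2410, 3 were called below (Cxcl1, Cxcl2 and Cxcl10) and 1 above (Cxcl13). The promoters of Cxcl1, Cxcl2 and Cxcl13 are shown because these genes lie on the same chromosome and moved apart in the comparison. That of Cxcl10 is not shown. Each line gives the 250 bases before the RefSeq gene start in the GRCm38.p6 assembly, a sequence of the reference strain and not of these mice, on the plus strand, at chr5:90890995-90891244, chr5:90903649-90903898 and chr5:95956689-95956938. Capitals mark matches, on either strand and with overlaps joined, to the NF-kB-type motif, GGGA and CC with any 4 bases between them.
Cxcl1: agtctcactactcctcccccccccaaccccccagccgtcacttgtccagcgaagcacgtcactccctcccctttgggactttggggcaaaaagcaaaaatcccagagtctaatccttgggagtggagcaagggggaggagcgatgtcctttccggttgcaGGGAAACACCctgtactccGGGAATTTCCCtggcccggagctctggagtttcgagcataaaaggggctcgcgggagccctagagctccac
Cxcl2: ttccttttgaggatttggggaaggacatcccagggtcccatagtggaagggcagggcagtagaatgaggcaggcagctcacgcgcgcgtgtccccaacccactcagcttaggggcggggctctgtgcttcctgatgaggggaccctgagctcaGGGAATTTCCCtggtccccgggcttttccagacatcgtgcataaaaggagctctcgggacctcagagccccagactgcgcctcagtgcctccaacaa
Cxcl13: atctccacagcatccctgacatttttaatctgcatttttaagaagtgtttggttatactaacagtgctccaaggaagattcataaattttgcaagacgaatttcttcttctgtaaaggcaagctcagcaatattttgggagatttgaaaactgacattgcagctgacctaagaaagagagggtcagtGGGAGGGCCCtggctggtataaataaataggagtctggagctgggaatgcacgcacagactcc
A match was present in all 3 windows, and 17.6% of the 32851 promoter windows of that length in the RefSeq table held one. The 3 genes were picked with their values known, so this is not a test. Named genes called either way also held a match, among them Fcmr and Parvb above and Gsta2 and Atf3 below. Cxcl1 and Cxcl2 share the stretch GGGAATTTCC, which begins 97 bases before the start in Cxcl2, while Cxcl13 holds GGGAGGGCCC, 63 bases before its start. The match is a description of the letters, and binding was not measured.

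Cxcl2 levels in 16-week NZB/W kidneys ran from 4.55 to 5.25 (median 4.77) and in 36-week kidneys from 4.58 to 6.78 (median 5.18). In NZM2410 they were 4.01, 3.88, 4.01, 4.01 and 3.98 before and 6.29, 5.99, 6.54, 5.64 and 6.51 with nephritis. Replicates 3 and 5 were the highest of the 36-week kidneys, and the NZM2410 groups did not overlap. Cxcl2 rose by 0.59 ± 0.20 (SE) in NZB/W and by 2.22 ± 0.15 (SE) in NZM2410, a difference of -1.63 ± 0.25 (SE, limma adjusted p = 0.000103; 0.0319 in the conservative form). Cxcl1 behaved similarly, with a change of 0.72 in NZB/W that missed the threshold (adjusted p = 0.0652), a rise of 2.41 in NZM2410 and a difference of -1.69 ± 0.36 (SE, adjusted p = 0.00514; 0.0857 in the conservative form). Cxcl13 lay between 6.10 and 6.61 at 16 weeks (median 6.34) and between 7.25 and 10.41 at 36 weeks (median 8.80). Its NZM2410 levels were 5.90, 5.66, 5.70, 5.60 and 5.94 before and 6.45, 6.08, 7.36, 6.12 and 6.59 with nephritis. The groups were separate in both strains, with the wider gap in NZB/W. Cxcl13 rose by 2.33 and 0.76, a difference of 1.57 ± 0.36 (SE, adjusted p = 0.0114; 0.108 in the conservative form). Without NZM2410 nephritic replicate 4, 6 chemokines were called below and 1 above; in the conservative form, and with the Gapdh covariate, 1 was called below and 0 above.

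Antibody genes gave the largest differences in the other direction. Of 17 measured plasma cell and immunoglobulin genes, 15 rose in NZB/W and 7 in NZM2410, with median changes of 2.57 and 0.19, and 9 were called above and 0 below. Ighg3, the constant region of IgG3, lay between 6.40 and 8.96 at 16 weeks (median 6.81) and between 8.50 and 12.45 at 36 weeks (median 10.33). Its NZM2410 levels were 5.84, 5.98, 6.01, 5.97 and 6.51 before and 5.82, 5.91, 5.90, 6.15 and 6.12 with nephritis. The highest 16-week value, of replicate 1, was the only one to reach into the 36-week range, and the NZM2410 groups lay on top of each other. Ighg3 rose by 3.25 ± 0.47 (SE) in NZB/W and changed by -0.08 ± 0.12 (SE) in NZM2410, a difference of 3.34 ± 0.48 (SE, limma adjusted p = 8.85e-05; 0.0252 in the conservative form). Ighg2b (IgG2b) rose by 3.17 in NZB/W and changed by 0.01 in NZM2410, and Ighg1 (IgG1) rose by 2.42 and changed by 0.12. Ighg2c (IgG2c) had changes of 0.13 and 0.04, with a difference of 0.09 ± 0.12 (SE, adjusted p = 0.776).

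The difference did not extend to every antibody gene. Igkc, the kappa light chain constant region, rose by 3.96 in NZB/W and by 4.83 in NZM2410, a difference of -0.87 ± 0.74 (SE, adjusted p = 0.618). Its NZM2410 levels were 4.73, 5.79, 5.19, 4.82 and 4.29 before and 8.76, 10.57, 10.81, 7.59 and 11.22 with nephritis. Igha (IgA) rose by 3.30 and 3.61 and Jchain, which joins the units of IgA and IgM, by 3.71 and 3.81. Ighm (IgM) rose in both strains, by 3.60 and 0.96, with a difference of 2.64 ± 0.46 (SE, adjusted p = 0.000793; 0.0585 in the conservative form). The lambda chain genes Iglc1 and Iglv1 and the variable segments Igkv6-15, Igkv4-81, Igkv12-46 and Ighv1-14, with 2 more kappa variable segments, rose by 2.67 to 3.63 in NZB/W and had changes of 0.19 to 0.75 in NZM2410. In the NZM2410 table these 8 genes stood low among all genes, between the percentiles 2.6 and 16.4 by mean level, as Ighg2b did at 9.5, against 33.1 for Ighg3 and 57.2 for Ighm. These 8 genes, Ighg2b, Pou2af1 and Tnfrsf17 were not marked as expressed above baseline in the deposited NZM2410 table. Antibody segments of the same family can be closely alike, so a probe set may read more than the gene it is named for. Pou2af1 and Mzb1, which serve antibody-secreting cells, were called above with differences of 2.28 and 1.73, and Tnfrsf17, the B cell maturation antigen, with 0.68. In NZB/W, Ighm was 9.27 ± 0.90 (SD, n = 11) at 23 weeks without proteinuria and 7.79 ± 1.07 (SD, n = 8) at 16 weeks. With those 23-week kidneys as the baseline the difference for Ighm was 1.16 (adjusted p = 0.142) that for Ighg3 2.12 (adjusted p = 0.00591), and that for Igkc -3.80 (adjusted p = 0.00536), so the call for Igkc depends on the baseline. In the conservative form 2 members of the list were called above, and with the Gapdh signal as a covariate 4.

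**Figure D3:**
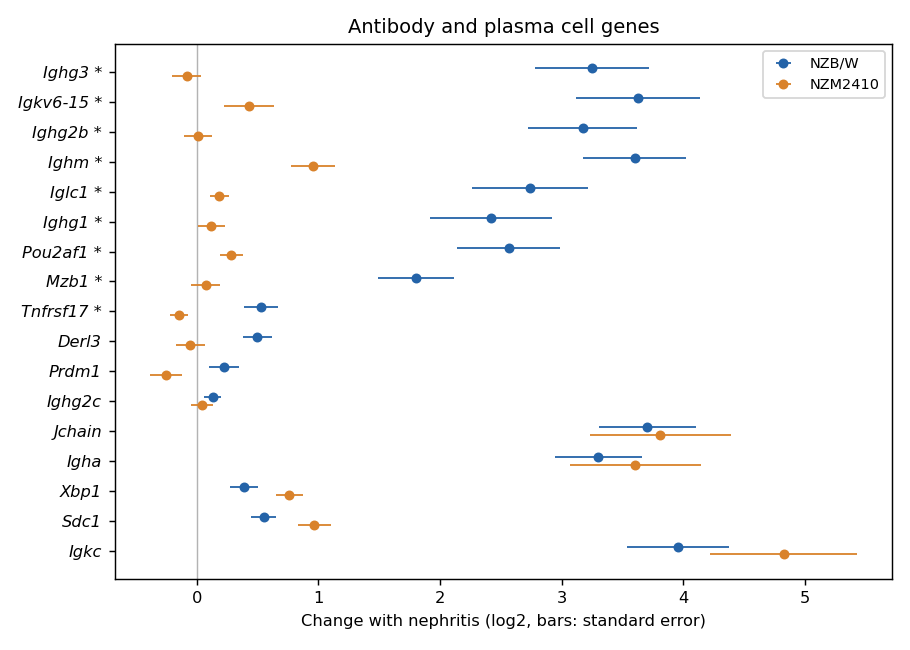
Change with nephritis (log2, x axis) of the 17 measured antibody and plasma cell genes in NZB/W (blue) and NZM2410 (orange), with standard errors; a star marks a called difference. Ighg3, Ighg2b, Ighg1, Ighm and Iglc1 lie apart, while Igkc, Igha and Jchain lie together.

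For the B cell genes, the difference was above 0 in all 14 measured members, 11 rose in NZB/W and 2 in NZM2410, and 5 were called above and 0 below. Over all genes, 11% rose in NZB/W and 11.4% in NZM2410, and 0.771% were called above. Cd79b, a subunit of the B cell receptor, lay between 5.56 and 6.14 at 16 weeks (median 5.82) and between 6.32 and 9.40 at 36 weeks (median 7.57). In NZM2410 Cd79b was 5.60, 5.83, 5.80, 5.56 and 5.64 before and 5.89, 6.23, 6.11, 6.05 and 5.84 with nephritis. It rose in both strains without overlap, by 1.70 and 0.34, a difference of 1.36 ± 0.30 (SE, adjusted p = 0.00920; 0.0961 in the conservative form). Ms4a1 (CD20) rose by 1.27 in NZB/W and changed by 0.04 in NZM2410, and Cd22, Cd37 and Fcmr, the IgM receptor, were the other called members. Ms4a1 and Fcmr were not marked as expressed above baseline in the NZM2410 table. In the conservative form, and with the Gapdh signal as a covariate, 0 B cell genes were called. Alas2, the heme synthesis enzyme of red cell precursors, rose by 1.60 in NZB/W and changed by -0.06 in NZM2410, while the red cell genes Slc4a1 and Epb42 had differences of 0.00 and 0.02.

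Genes of macrophages and of antigen presentation rose in both strains. Of 28 mononuclear phagocyte genes, 27 rose in NZB/W and 25 in NZM2410, with medians of 1.36 and 1.32, and 0 were called for a difference (limma), with 5 at an unadjusted p under 0.05. Of 12 MHC class II genes, 10 and 9 rose, with medians of 1.12 and 2.04; 0 were called for a difference by limma, with 7 at an unadjusted p under 0.05. Without NZM2410 nephritic replicate 4, 7 of the MHC class II genes and 4 MHC class I genes were called below. Of 27 interferon response genes, 22 and 21 rose, with medians of 0.76 and 0.83, and 1 was called.

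That gene was Ifi202b, an interferon-inducible member of the p200 family on chromosome 1 that was proposed as a lupus susceptibility gene in New Zealand mice. Its levels were 5.30 to 6.10 at 16 weeks (median 5.45) and 6.14 to 9.46 at 36 weeks (median 7.71). In NZM2410 they were 3.45, 3.35, 3.44, 3.41 and 3.53 before and 3.37, 3.51, 3.46, 3.62 and 3.52 with nephritis. No 36-week value lay in the 16-week range, and the NZM2410 groups overlapped near the bottom of that table, at percentile 1.8 of all genes and not marked there as expressed above baseline. Ifi202b rose by 2.14 ± 0.32 (SE) in NZB/W and changed by 0.06 ± 0.07 (SE) in NZM2410, a difference of 2.08 ± 0.33 (SE, limma adjusted p = 0.000317; 0.0398 in the conservative form). It was 5.52 ± 0.24 (SD, n = 11) at 23 weeks without proteinuria and 7.08 ± 0.87 (SD, n = 6) at onset. Its relative Ifi204 rose in both strains, by 1.28 and 1.18.

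In the complement list, 11 of 17 genes rose in NZB/W and 10 in NZM2410, and 2 were called below. The shares over all genes were 11% and 11.4% for a rise and 0.947% for a call below. Cfi, the protease that inactivates C3b, rose by 0.52 ± 0.14 (SE) in NZB/W and by 1.88 ± 0.13 (SE) in NZM2410, a difference of -1.36 ± 0.19 (SE, limma adjusted p = 8.85e-05; 0.0252 in the conservative form). Its NZM2410 levels were 7.81, 7.58, 7.63, 7.75 and 7.69 before and 9.97, 9.68, 9.61, 9.09 and 9.51 with nephritis, and its NZB/W levels ran from 8.60 to 9.02 and from 8.60 to 9.83. The NZM2410 groups were separate and the NZB/W groups overlapped. Cfb, factor B of the alternative pathway, changed by -0.04 in NZB/W and rose by 0.63 in NZM2410. C3, the central component, rose by 2.0 and 2.87, and the difference did not pass (adjusted p = 0.468). Of 24 NF-kB and cytokine targets, 2 were called below, Vcam1 and Relb, a subunit of NF-kB, which rose by 0.83 and 1.60. Without NZM2410 nephritic replicate 4, 9 were called below, and in the conservative form or with the Gapdh covariate 0. The transcription factors Junb and Jund rose by 1.50 and 0.74 in NZM2410 and had changes of 0.46 and 0.16 in NZB/W. They were the 2 called of 22 immediate early and heat shock genes, and Atf3, a stress-induced factor, rose by 1.81 in NZM2410 against 0.59 in NZB/W. Of the 22, 7 were called below without NZM2410 nephritic replicate 4, and 0 in the conservative form or with the Gapdh covariate.

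**Figure D4:**
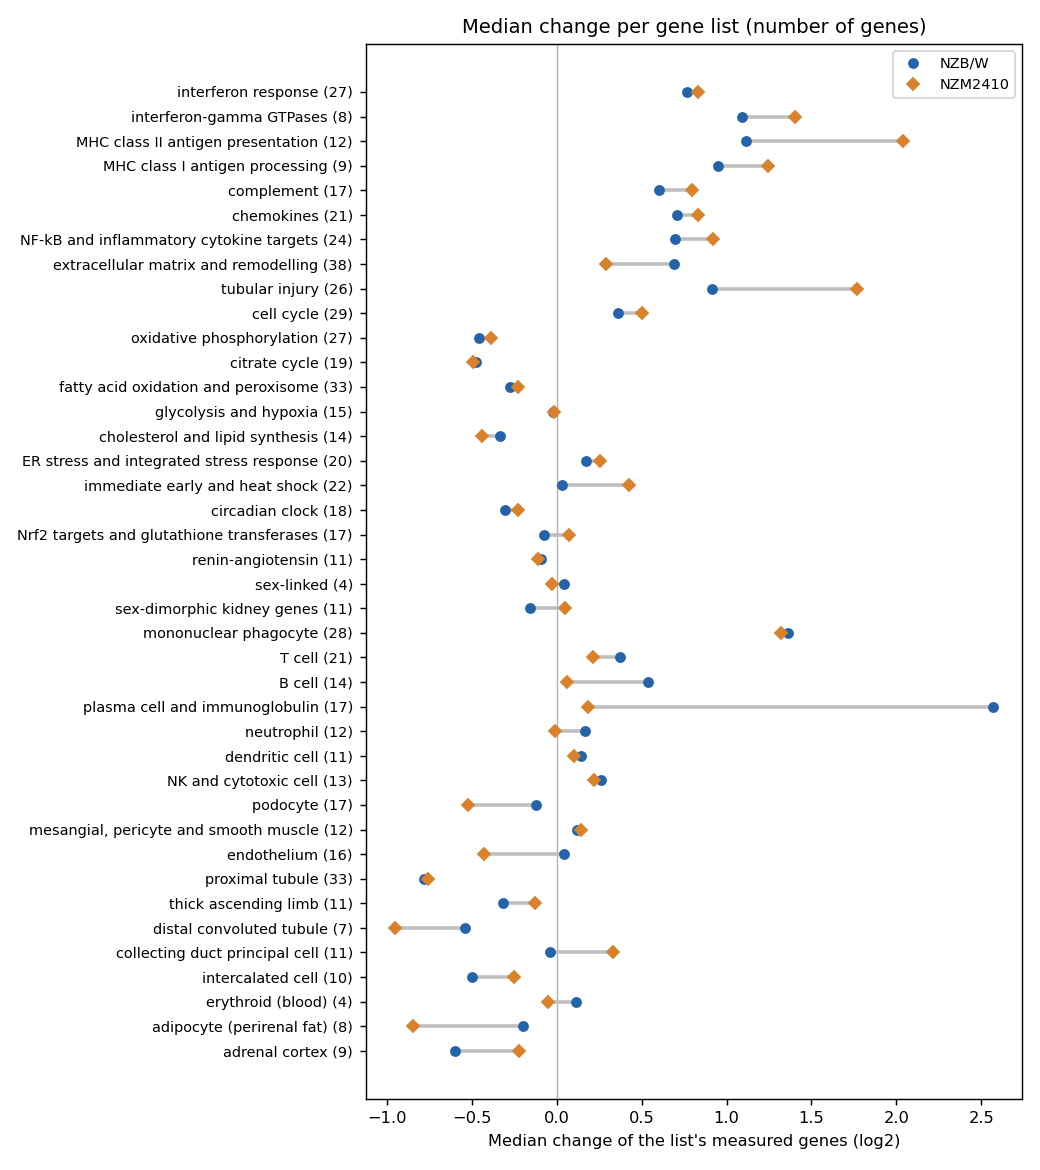
Median change (log2, x axis) of the measured genes in each of 40 gene lists, in NZB/W (blue circles) and NZM2410 (orange diamonds), with the number of genes in parentheses. Proximal tubule, citrate cycle and macrophage lists coincide, tubular injury lies further right in NZM2410 and antibody genes further right in NZB/W.

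Genes of the vessel lining and of podocytes, the filtering cells of the glomerulus, were among those that fell in NZM2410. Of 16 endothelial genes, 9 fell in NZM2410 and 1 in NZB/W, where 2 rose, and 3 were called above (Tie1, Robo4 and Nos3). Over all genes, 13.8% fell in NZM2410 and 15.3% in NZB/W, where 11% rose, and 0.771% were called above. Robo4, a receptor of endothelial cells, was 7.49, 7.47, 7.47, 7.44 and 7.47 in prenephritic and 6.14, 7.07, 6.94, 6.95 and 6.86 in nephritic NZM2410 kidneys, where the groups did not overlap. In NZB/W it ran from 6.65 to 6.95 at 16 weeks (median 6.86) and from 6.63 to 7.03 at 36 weeks (median 6.76). Tie1, an endothelial receptor kinase, and Nos3, endothelial nitric oxide synthase, fell by 0.64 and 0.38 in NZM2410 and changed by 0.05 and 0.14 in NZB/W. Of 17 podocyte genes, 10 fell in NZM2410 and 4 in NZB/W, with median changes of -0.52 and -0.12. Ptpro, a podocyte phosphatase, was called above, with a fall of 0.66 in NZM2410 and a change of 0.14 in NZB/W. Cd2ap, a slit diaphragm adaptor that other cells also use, was called below and rose by 1.04 in NZM2410. Nphs1 (nephrin) fell by 0.65 in NZM2410 and changed by -0.16 in NZB/W, and its difference of 0.49 ± 0.17 (SE) missed the threshold (adjusted p = 0.134), though without NZM2410 nephritic replicate 4 it was 0.55 (adjusted p = 0.0343). Without NZM2410 nephritic replicate 4, 10 endothelial and 7 podocyte genes were called above; in the conservative form and with the Gapdh covariate, 0 of either were.

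Further along the nephron, Umod (uromodulin) and Cldn16, a claudin of the thick ascending limb, were the 2 called of 11 genes of that segment. Umod fell by 0.23 in NZB/W and changed by 0.17 in NZM2410, and Cldn16 changed by 0.10 and rose by 0.80. Both were called below, as were 0.947% of all genes. In the conservative form, and with the Gapdh covariate, 0 of the 11 were called. Under 43 alternatives the call was lost in 21 for Umod and in 15 for Cldn16. Hsd11b2, which shields the mineralocorticoid receptor from glucocorticoid, rose by 0.53 in NZM2410 and changed by -0.08 in NZB/W. Its difference of -0.61 had a limma adjusted p of 0.0186, and of 0.114 in the conservative form. Serpina6, the corticosteroid-binding globulin, fell in both strains by unequal amounts. Its levels ran from 7.19 to 9.96 at 16 weeks (median 8.35) and from 6.21 to 7.29 at 36 weeks (median 6.36). In NZM2410 it was 12.28, 12.13, 12.11, 12.08 and 11.51 before and 6.98, 6.81, 6.49, 8.82 and 5.87 with nephritis, the 8.82 being that of replicate 4. The falls were 1.98 and 5.03, a difference of 3.04 ± 0.53 (SE, limma adjusted p = 0.00233; 0.0585 in the conservative form). Of 38 matrix genes, 27 rose in NZB/W and 14 in NZM2410, against 11% and 11.4% of all genes. In that list 1 was called for a difference: Col4a2, a basement membrane collagen, rose by 0.80 in NZB/W and changed by -0.12 in NZM2410.

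In all, 14 genes were called in both strains with opposite signs. The 8 that rose in NZB/W and fell in NZM2410 included Serpina1b, an alpha-1-antitrypsin, Cd38, an NAD-consuming ectoenzyme of leukocytes, Fcmr, Uroc1 (urocanase of histidine breakdown), Cldn15, a claudin, and Parvb, a focal adhesion protein; Dgka, a diacylglycerol kinase, and Rbck1, a subunit of a ubiquitin ligase, were the other 2. The 6 that fell in NZB/W and rose in NZM2410 were Gsta2 and Gstt1, glutathione transferases, Ackr3, a scavenging chemokine receptor, Id2, an inhibitor of helix-loop-helix factors, Epb41l4a and LOC100043157. Gstt1 levels ran from 10.99 to 11.05 (median 11.04) in the 5 prenephritic NZM2410 kidneys and were 11.68, 11.62, 11.73, 11.51 and 11.71 with nephritis. In NZB/W they ran from 10.81 to 11.30 (median 11.03) at 16 weeks and from 10.10 to 11.04 (median 10.67) at 36 weeks. The NZM2410 groups did not overlap and the NZB/W groups did. Gstt1 fell by 0.37 ± 0.10 (SE) and rose by 0.63 ± 0.06 (SE), a difference of -1.0 ± 0.11 (SE, limma adjusted p = 2.37e-07; 0.0131 in the conservative form), and was the 1 gene with opposite signs that both forms of the test called. Gsta2 fell by 0.70 and rose by 0.41, and Srxn1, a sulfiredoxin of the oxidant defence, changed by 0.12 in NZB/W and rose by 0.72 in NZM2410.

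**Figure D5:**
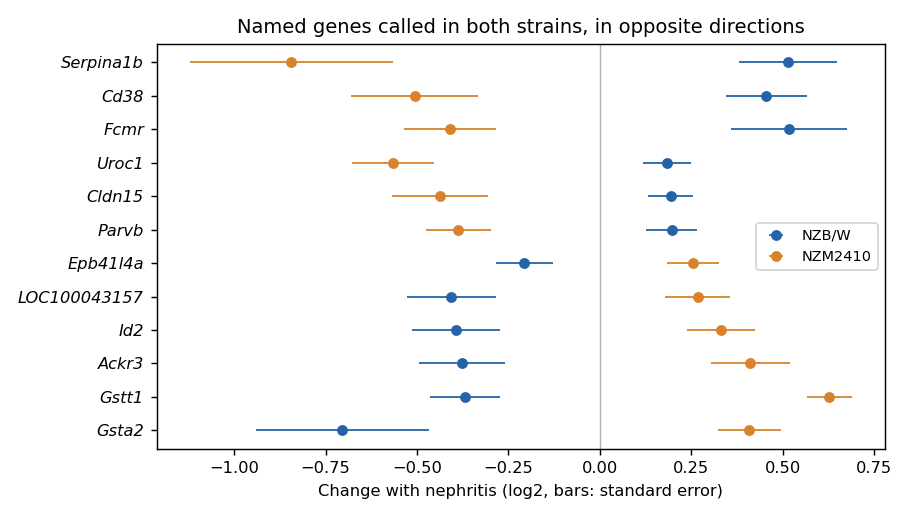
Change with nephritis (log2, x axis) with standard errors for 12 of the 14 genes called in both strains with opposite signs, NZB/W in blue and NZM2410 in orange. The changes are small, from -0.84 (Serpina1b) to 0.63 (Gstt1) in NZM2410.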

How the data were processed

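Whole-kidney total RNA was hybridized to Affymetrix arrays, per the labels' protocols. The deposited tables hold log2 levels, 1 table per strain, made by the authors with RMA (robust multi-array average) per the submitters' processing notes, and the array type and build are not given in the sources used here. The number of arrays limits the precision. Samples were grouped from the labels. Gene IDs were named through RefSeq (GRCm38.p6): 16229 matched and 246 did not; 64 control rows were left out. Each table was fitted alone with limma 3.58.1 in R 4.3.3 (35 NZB/W arrays in 4 groups, 10 NZM2410 arrays), and the difference of changes was tested with summed moderated variances, Satterthwaite degrees of freedom and Benjamini-Hochberg adjustment over 16475 genes, two-sided. On simulated data the planted differences were recovered, but false calls exceeded their nominal share, so a form with the smaller degrees of freedom was added. Array measures used exact permutation tests.

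Named genes were the 12 with the largest difference each way, up to 6 each way with opposite calls, up to 3 called per list, and Lcn2, Havcr1, C3, Igkc, Nphs1, Slc34a1 and Umod; other list members were named after their values were seen, and 1 gene that the rule names is not reported here. The members and lists were chosen with earlier results of these data known. Alternatives covered the spread, baseline, normalization, scaling, filters, weights, blocks, a Gapdh covariate and each left-out sample. Same-numbered samples did not deviate together (r from -0.443 to 0.211), so no pairing was used.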

Additional observations from a re-analysis of the deposited data

Results flagged for a closer look

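Single kidneys lay far from the rest of their group (Dixon's gap test) in 26 of 256 gene and group combinations of the named genes; chance gives about 1 in 20. The 16-week NZB/W replicate 1 was high for Ighg3 at 8.96, Igkv6-15 at 6.79, Ighg2b at 7.25, a kappa variable segment at 6.06, Ighm at 10.3, Ighv1-14 at 7.27, Pcdh8 at 4.38, Fabp1 at 8.33 and Igkc at 12.9 (log2 level). The 16-week NZB/W replicate 4 was low for Nos3 at 6.1 (log2 level). The 16-week NZB/W replicate 5 was high for Atf3 at 6.91 (log2 level). The 36-week NZB/W replicate 10 was high for Nos3 at 7.22 (log2 level). The 36-week NZB/W replicate 7 was high for Cyp2j13 at 6.41 (log2 level). The nephritic NZM2410 replicate 1 was high for Id2 at 12.57 and low for Robo4 at 6.14 (log2 level). The nephritic NZM2410 replicate 2 was high for Ighv1-14 at 5.19 and Igkv12-46 at 5.01 (log2 level). The nephritic NZM2410 replicate 4 was low for Cyp2j13 at 5.05 (log2 level). The nephritic NZM2410 replicate 5 was low for Ptpro at 6.43 (log2 level). The prenephritic NZM2410 replicate 2 was low for Cxcl2 at 3.88 (log2 level). The prenephritic NZM2410 replicate 4 was low for Tie1 at 7.32 (log2 level). The prenephritic NZM2410 replicate 5 was high for Ighg3 at 6.51 and Igkv12-46 at 4.07 and low for Serpina6 at 11.51, Id2 at 11.71 and Cd2ap at 8.43 (log2 level).

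Of the 64 named genes, 59 were called by the test of the difference between strains (limma, adjusted p under 0.05). Most were named because that same test called them, so their number is not a result. The NZB/W change lay above the NZM2410 change, with log2 differences of 3.34 for Ighg3, 3.2 for Igkv6-15, 3.16 for Ighg2b, 3.04 for Serpina6, 2.88 and 2.88 for 2 further kappa variable segments, 2.72 for Igkv4-81, 2.64 for Ighm, 2.59 for Ighv1-14 and 2.56 for Iglc1. It also lay above, with log2 differences of 2.5 for Igkv12-46, 2.43 for Iglv1, 1.36 for Serpina1b, 0.96 for Cd38, 0.93 for Fcmr, 0.75 for Uroc1, 0.63 for Cldn15, 0.58 for Parvb, 2.08 for Ifi202b and 1.57 for Cxcl13. It also lay above, with log2 differences of 0.92 for Col4a2, 1.36 for Cd79b, 1.22 for Ms4a1, 0.8 for Ptpro, 0.69 for Tie1, 0.66 for Robo4, 0.52 for Nos3 and 1.66 for Alas2. The NZB/W change lay below the NZM2410 change, with log2 differences of -4.43 for Havcr1, -2.77 for Krt20, -2.37 for Pcdh8, -2.14 for Aoc1, -2.05 for Fabp1, -1.96 for Cyp4b1, -1.93 for Vcam1, -1.8 for Cyp24a1, -1.76 for Anxa13 and -1.72 for Smpdl3b. It also lay below, with log2 differences of -1.69 for Cxcl1, -1.68 for Cd44, -1.11 for Gsta2, -1 for Gstt1, -0.79 for Ackr3, -0.73 for Id2, -0.68 for LOC100043157, -0.46 for Epb41l4a, -1.36 for Cfi and -0.68 for Cfb. It also lay below, with log2 differences of -1.63 for Cxcl2, -0.76 for Relb, -1.22 for Atf3, -1.03 for Junb, -0.58 for Jund, -0.6 for Srxn1, -1.59 for Cyp2j13, -0.82 for Cd2ap, -0.7 for Cldn16 and -0.4 for Umod. It also lay below, with a log2 difference of -0.61 for Hsd11b2.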

How the results depend on the processing

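No called difference of a named gene turned its sign under any alternative. These genes were picked by their calls in the same arrays, so the kept signs are not a test of direction. The number of calls did not hold. Against 283 (127 above, 156 below), the conservative degrees of freedom gave 18 (7 and 11), the Gapdh covariate 88 (49 and 39), a fit pooling both tables' spread gave 131 (62 and 69) and a fit with only the compared NZB/W groups 171 (83 and 88). The 23-week baseline gave 431 (247 below), leaving out 16-week replicates 1 to 3, an alternative added after seeing the data, 735 (290 and 445), and array weights 2732 (1043 and 1689). Leaving out genes of low level left 79 above. Scaling both strains to the same array SD gave 229 calls (108 and 121), and 11 of the 59 named calls were lost. Leaving out 1 sample gave 138 to 1170 (70 to 453 above, 68 to 717 below); counts moved by over 1.5 times without NZM2410 nephritic replicate 3 (138) or 4 (1170), NZM2410 prenephritic replicate 1 (156) or 2 (176), and 36-week replicate 7 (549) or 10 (448), as did the count below without NZM2410 prenephritic replicate 4 (103). Genes called within NZB/W numbered 6542 with array weights, 2731 when the stem of the sample titles entered as a random block, 2527 with the Gapdh covariate and 3625 to 4837 with 1 sample left out; within NZM2410, 6449 with weights and 3231 to 5017. The cause of these shifts was not tested, apart from fewer samples or genes. The replicate block gave 293 calls, and same-numbered samples share only a number; the stem block could not be fitted in NZM2410.

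Of 59 named genes called, 37 kept the call with any 1 sample left out and 9 under every alternative that tested them: Havcr1, Cyp4b1, Gstt1 and Cfi, and, left out by 1 or both filters on level, Ighg3, Ighg2b, Ifi202b, Pcdh8 and Cxcl2. The calls lost most often, of 43 alternatives each, were those of Cyp24a1 (28), Nos3 (26), Srxn1 (26), Tie1 (25), Fabp1 (23) and Col4a2 (23). The 2 strains may have been normalized separately. Of the 283 called genes, 18 in NZB/W and 26 in NZM2410 were not marked as expressed above baseline by the authors. Among genes marked in both, 249 were called.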
